A study of Mus musculus with 18 samples.

Results

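The unfolded protein response and the integrated stress response were followed in the aorta through 39 genes, chosen by symbol among the 54281 genes of the count table. They were split into 19 genes around the transcription factor Atf4 and 20 genes of the endoplasmic reticulum (ER): its stress sensors, its chaperones and its degradation machinery (ERAD). Members and further lists were chosen with earlier results of these data known, so their shares beside those of all tested genes are descriptions. All samples were descending aortas of male C57BL/6 mice, of which intima, media and adventitia were taken as one piece. The 6 HGPS mice (genotype LMNAG609G by the labels, 64 to 75 d old) carry the progeria mutation at the endogenous Lmna locus, so that no promoter or Cre restricts it to a cell type, and the study's text describes the model as homozygous. They were compared with 6 WT mice of the 2-mo group, of which 5 were 62 d old and the sixth 95 d, and with 6 WT mice of the 24-mo group (609 to 762 d). RNA was depleted of ribosomal RNA, and the deposited values are estimated counts per gene, given here as CPM (the count of a gene relative to the library total, scaled by TMM). Differences are log2 fold changes with their standard error (SE) from edgeR's quasi-likelihood test. A gene was called at an adjusted p under 0.05 over the 15210 genes that reached 10 counts in 6 or more mice. Of the 39 genes, 38 passed that filter, and Fgf21 did not.

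The integrated stress response begins when kinases phosphorylate the initiation factor eIF2. Most translation then falls, while the mRNA of Atf4 is translated more, and Atf4 switches on genes for amino acid supply, redox defence and cell fate. The unfolded protein response starts in the ER, where the sensors Eif2ak3 (PERK), Ern1 (IRE1) and Atf6 detect misfolded proteins. PERK is also an eIF2 kinase, Ern1 splices the mRNA of Xbp1, and cleaved Atf6 and spliced Xbp1 raise chaperones such as Hspa5 (BiP). Counts per gene do not show translation of Atf4, splicing of Xbp1 or cleavage of Atf6.

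The gene sets carry different letters upstream of their start sites, and the windows are shown because the results below are ordered by these branches. RefSeq promoters (GRCm38.p6, 250 bases before to 50 bases after the start) matched 35 of the 39 genes. Those of Slc7a5, Atf6, Hyou1 and Manf were not matched. The ER stress response element was searched on either strand as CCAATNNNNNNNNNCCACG. It was found in 7 of 17 matched ER genes (41.2%) and in 0 of 18 genes of the Atf4 list, where 0.137% of all 27025 genes with a promoter held it. The windows below are written 5′ to 3′ on the strand of the gene, with the match in capitals and positions counted from the start site.
Hspa5 (chr2:34772017-34772051, plus strand, match at -65 to -47): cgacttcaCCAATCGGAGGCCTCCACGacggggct
Hsp90b1 (chr10:86705630-86705664, minus strand, match at -212 to -194): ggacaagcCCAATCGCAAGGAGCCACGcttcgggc
Hsp90b1 (chr10:86705525-86705559, minus strand, match at -107 to -89): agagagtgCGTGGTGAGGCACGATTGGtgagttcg
Calr (chr8:84847067-84847101, minus strand, match at -162 to -144): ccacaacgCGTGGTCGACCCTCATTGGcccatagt
Canx (chr11:50325792-50325826, minus strand, match at -145 to -127): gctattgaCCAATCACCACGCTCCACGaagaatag
Pdia6 (chr12:17266483-17266517, plus strand, match at -98 to -80): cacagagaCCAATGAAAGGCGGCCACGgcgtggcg
Dnajc3 (chr14:118937819-118937853, plus strand, match at -105 to -87): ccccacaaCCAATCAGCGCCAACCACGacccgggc
Creld2 (chr15:88819512-88819546, plus strand, match at -126 to -108): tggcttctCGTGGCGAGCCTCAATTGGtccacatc
Derl3 (chr10:75893234-75893268, plus strand, match at -156 to -138): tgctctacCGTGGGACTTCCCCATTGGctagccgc
Derl3, an ERAD gene outside the 39, is shown because it is described below. Syvn1, also an ERAD gene outside the 39, held the element too and is not shown.

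The C/EBP-ATF response element, to which Atf4 binds with a partner, was searched on either strand as TGATGNAA. It was found in 5 of 18 genes of the Atf4 list (27.8%) and in 1 of 17 ER genes (5.88%), against 4.51% of all genes with a promoter. Among the genes for tRNA synthetases, 5 of 7 with a promoter held it (Aars, Gars, Iars, Tars and Yars). The element of Trib3 lies after the start site of the matched RefSeq transcript.
Chac1 (chr2:119351043-119351062, plus strand, match at -193 to -186): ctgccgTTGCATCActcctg
Trib3 (chr2:152344033-152344052, minus strand, match at 15 to 22): tcaggtTTACATCAgccggg
Asns (chr6:7693219-7693238, minus strand, match at -23 to -16): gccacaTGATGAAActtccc
Fgf21 (chr7:45615616-45615635, minus strand, match at -139 to -132): cccccaTTGCATCAtccgtc
Pycr1 (chr11:120643838-120643857, minus strand, match at -103 to -96): tgtgtaTGATGCAAtgcaca
Herpud1 (chr8:94386311-94386330, plus strand, match at -112 to -105): ggcgggTTGCATCAgcccgc
Slc7a11 (chr3:50443666-50443685, minus strand, match at -66 to -59): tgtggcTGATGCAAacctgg
Herpud1 was the only ER gene with this element, and it also held the second form of the ER stress element, searched as ATTGGNCCACG and found in 0.0444% of all genes with a promoter.
Herpud1 (chr8:94386369-94386395, plus strand, match at -52 to -42): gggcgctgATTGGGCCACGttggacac
These matches are letters in a short window and were not tested for binding.

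Every mouse was a separate animal. The totals per mouse ranged from 12413229 to 30844775 counts, and no 2 mice of a group agreed within sampling noise. Smooth muscle markers such as Myh11 were abundant in all mice, at 20325 to 39599 CPM summed over 7 genes. Groups differed in their cell markers. All 7 macrophage markers were called higher in HGPS than in 2-mo WT aortas, as were all 6 brown fat, all 5 cell cycle and 4 of 5 white fat markers, whose sum had a median of 1088 CPM in HGPS and 348 CPM in 2-mo WT. Lower were 6 of 7 smooth muscle and 3 of 6 fibroblast markers, and 0 of 6 endothelial markers were called. A change in such whole-tissue counts can come from more cells of a type or from more RNA per cell, and these cannot be told apart. Reads shared with near-identical gene copies were split by estimate, and the strand setting of the counting is not given in the sources used here.

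In HGPS aortas, 13 of the 18 tested genes of the Atf4 list were called higher than in 2-mo WT (72.2%) and 0 lower, against 22% of all tested genes called higher and 21.2% lower. DESeq2 also called 0 of them lower, and 0 were lower at an unadjusted p under 0.05. The median log2 fold change of the list was 1.07, and that of all tested genes 0.0026. The cut-offs of the study ask for a 1.5-fold difference with an adjusted p below 0.001. The study used them on DESeq2 results, and here they were applied to the edgeR fit, so the shares are not those of the study. At these cut-offs 11 of the 18 were higher, where 5.27% of all tested genes were higher and 4.23% lower. In 11 of the 18, all 6 HGPS mice lay above all 6 2-mo WT mice, a separation found in 11.0% of all tested genes. Gdf15 passed the filter on low counts only with the HGPS mice, and without it 12 of 17 were called higher. Of these 17, 10 were higher at the cut-offs of the study and 10 had groups apart.

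**Figure D1:**
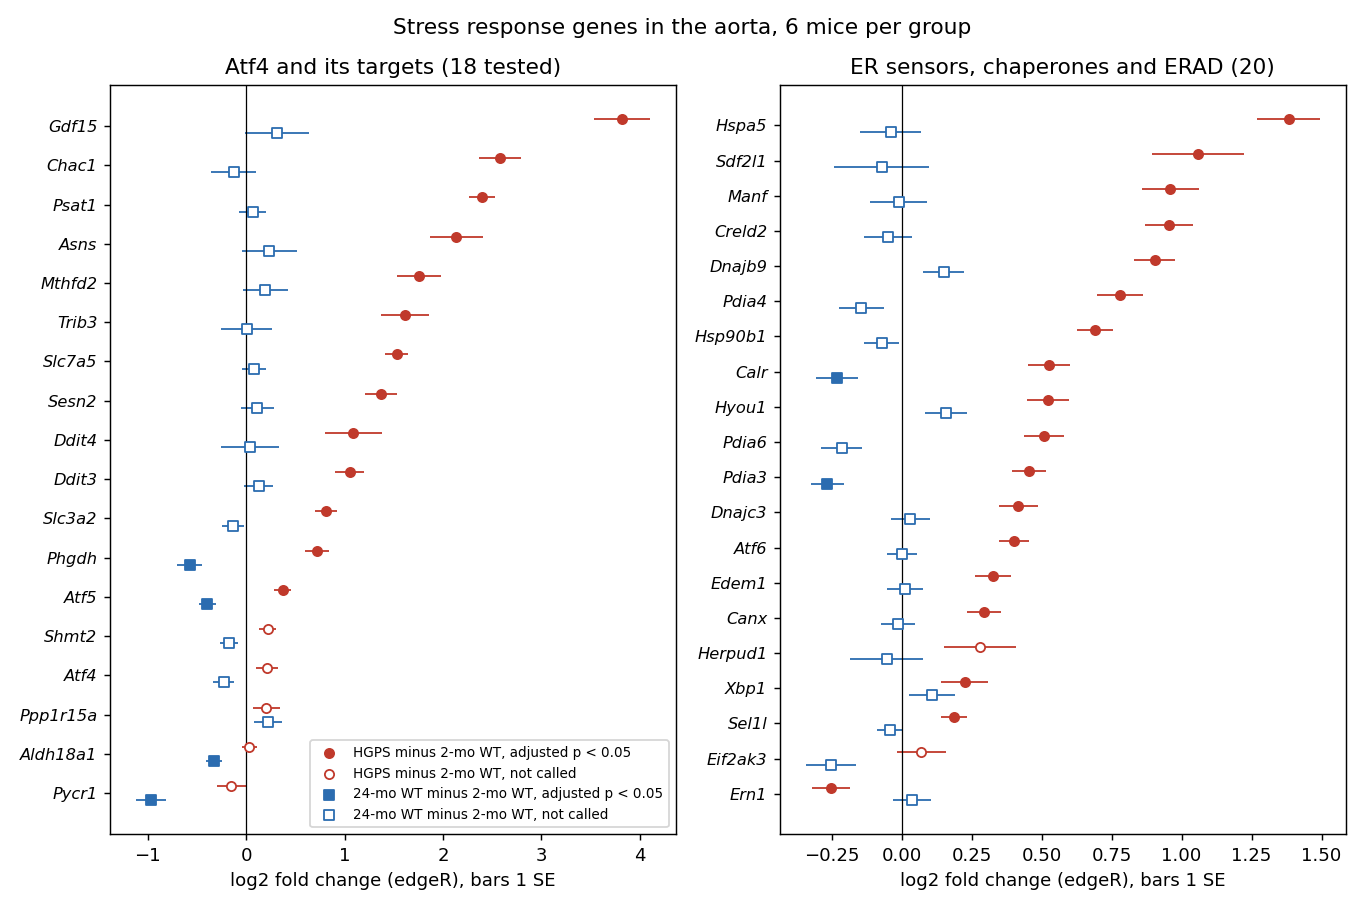
Log2 fold change of each tested gene against 2-mo WT, for HGPS (red circles) and 24-mo WT (blue squares), with bars of 1 SE and filled symbols at an adjusted p under 0.05, for 6 mice per group. In HGPS the Atf4 list runs from -0.15 for Pycr1 to 3.82 for Gdf15 and the ER list from -0.25 for Ern1 to 1.38 for Hspa5, while at 24 mo no gene was called higher.

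The mRNA of Atf4 itself ranged from 124 to 165 CPM (median 141) in HGPS, from 104 to 143 CPM (median 122) in 2-mo WT and from 87.2 to 138 CPM (median 101) in 24-mo WT. The groups overlapped. The difference of 0.21 ± 0.11 (SE, adjusted p = 0.119) between HGPS and 2-mo WT did not pass the test. Atf4 was called in 3 of 29 alternative fits. These used the replicate number as a block, brown fat and skeletal muscle scores, or an immediate early score. Ddit3 encodes CHOP, a transcription factor that acts downstream of Atf4. It ranged from 10.1 to 18.6 CPM (median 13.6) in 24-mo WT, and its HGPS values, from 21 to 32.2 CPM (median 24.3), were above those of all 12 WT mice. Trib3, a pseudokinase that restrains Atf4 and CHOP, ranged from 5.43 to 8.95 CPM (median 5.84) in HGPS and from 1.30 to 3.46 CPM (median 1.97) in 2-mo WT, without overlap. The log2 fold change of Trib3 was 1.61 ± 0.25 (SE, adjusted p = 4.8e-05). Atf5, a factor whose mRNA is translated in a similar way to that of Atf4, rose less, by 0.37 ± 0.09 (SE, adjusted p = 0.00209), and 5 of 6 HGPS mice exceeded the 2-mo WT range. Ppp1r15a (GADD34) directs the phosphatase that reverses eIF2 phosphorylation. Its HGPS values of 38.1 to 51 CPM (median 46.3) overlapped those of 2-mo WT, 32.4 to 47.2 CPM (median 39.4), and the difference of 0.21 ± 0.14 (SE, adjusted p = 0.254) did not pass.

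Enzymes of serine, glycine, folate, proline and asparagine synthesis make up 7 genes of the list, of which 4 were called higher in HGPS. Psat1, the aminotransferase of serine synthesis, ranged from 28.5 to 40.8 CPM (median 32.3) in HGPS and from 4.70 to 8.30 CPM (median 6.25) in 2-mo WT. No HGPS mouse came near the WT range, and the log2 fold change of 2.40 ± 0.13 (SE, adjusted p = 3.6e-10) had the smallest adjusted p of all 38 genes. Asns, which makes asparagine, ranged from 17.7 to 32.1 CPM (median 22.9) in HGPS and from 2.19 to 10.1 CPM (median 4.72) in 2-mo WT, where the lowest and highest mice lay far apart. Its difference was 2.14 ± 0.27 (SE, adjusted p = 6.8e-06). Mthfd2, a mitochondrial enzyme of one-carbon metabolism, ranged from 39.1 to 52.4 CPM (median 44.6) in HGPS and from 9.70 to 15.7 CPM (median 13.3) in 2-mo WT, again apart, with a difference of 1.76 ± 0.22 (SE, adjusted p = 6.8e-06). Phgdh catalyses the first step of serine synthesis, and its 29.2 to 38.1 CPM (median 34.4) in HGPS lay above the 18.2 to 22.7 CPM (median 20.9) of 2-mo WT (0.72 ± 0.12 SE, adjusted p = 0.00013). The proline enzymes Aldh18a1 and Pycr1 and the serine hydroxymethyltransferase Shmt2 did not pass, at 0.03 ± 0.08, -0.15 ± 0.15 and 0.22 ± 0.09 (adjusted p = 0.767, 0.433 and 0.0566). Shmt2 was called in 10 of 29 alternative fits, DESeq2 among them.

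Gdf15 encodes a secreted stress hormone. Its level was low, from 0.349 to 0.619 CPM (median 0.466) in 2-mo WT and from 2.81 to 8.80 CPM (median 7.46) in HGPS, and all HGPS mice were above all WT mice. It had 5 to 12 counts in the 2-mo WT mice, 5 to 14 in the 24-mo WT mice and 90 to 184 in the HGPS mice. As only 5 WT mice reached 10 counts, it passed the minimum of 10 counts in 6 mice only with the HGPS mice, and its fitted log2 fold change of 3.82 is a description. Chac1, which degrades glutathione, ranged from 4.57 to 9.59 CPM (median 6.96) in HGPS and from 0.768 to 1.44 CPM (median 1.10) in 2-mo WT, without overlap, and rose by 2.58 ± 0.21 (SE, adjusted p = 7.3e-08). Sesn2 and Ddit4 restrain the growth kinase mTORC1. Sesn2 rose by 1.37 ± 0.16 (SE, adjusted p = 3.6e-06), with groups apart, and Ddit4 by 1.09 ± 0.29 (SE, adjusted p = 0.00531), with 5 of 6 HGPS mice above the 2-mo WT range. Fgf21, a second stress hormone, had 4 counts in 3 of the 6 HGPS mice, 2 counts in 1 of the 24-mo WT mice and 0 counts in the 2-mo WT mice, which allows up to 0.0289 CPM over that group, and no fold is given.

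Slc7a5 and Slc3a2 encode the light and heavy chains of the LAT1 transporter of large neutral amino acids. Slc7a5 ranged from 31.1 to 36.4 CPM (median 32.6) in HGPS and from 8.94 to 13.5 CPM (median 11.8) in 2-mo WT. Slc3a2 ranged from 79.9 to 100.4 CPM (median 92.2) in HGPS and from 40.7 to 61.8 CPM (median 53) in 2-mo WT. Neither gene had overlapping groups, and the light chain changed by 1.53 ± 0.12 (SE, adjusted p = 3.3e-08) and the heavy chain by 0.81 ± 0.11 (SE, adjusted p = 1.4e-05).

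**Figure D2:**
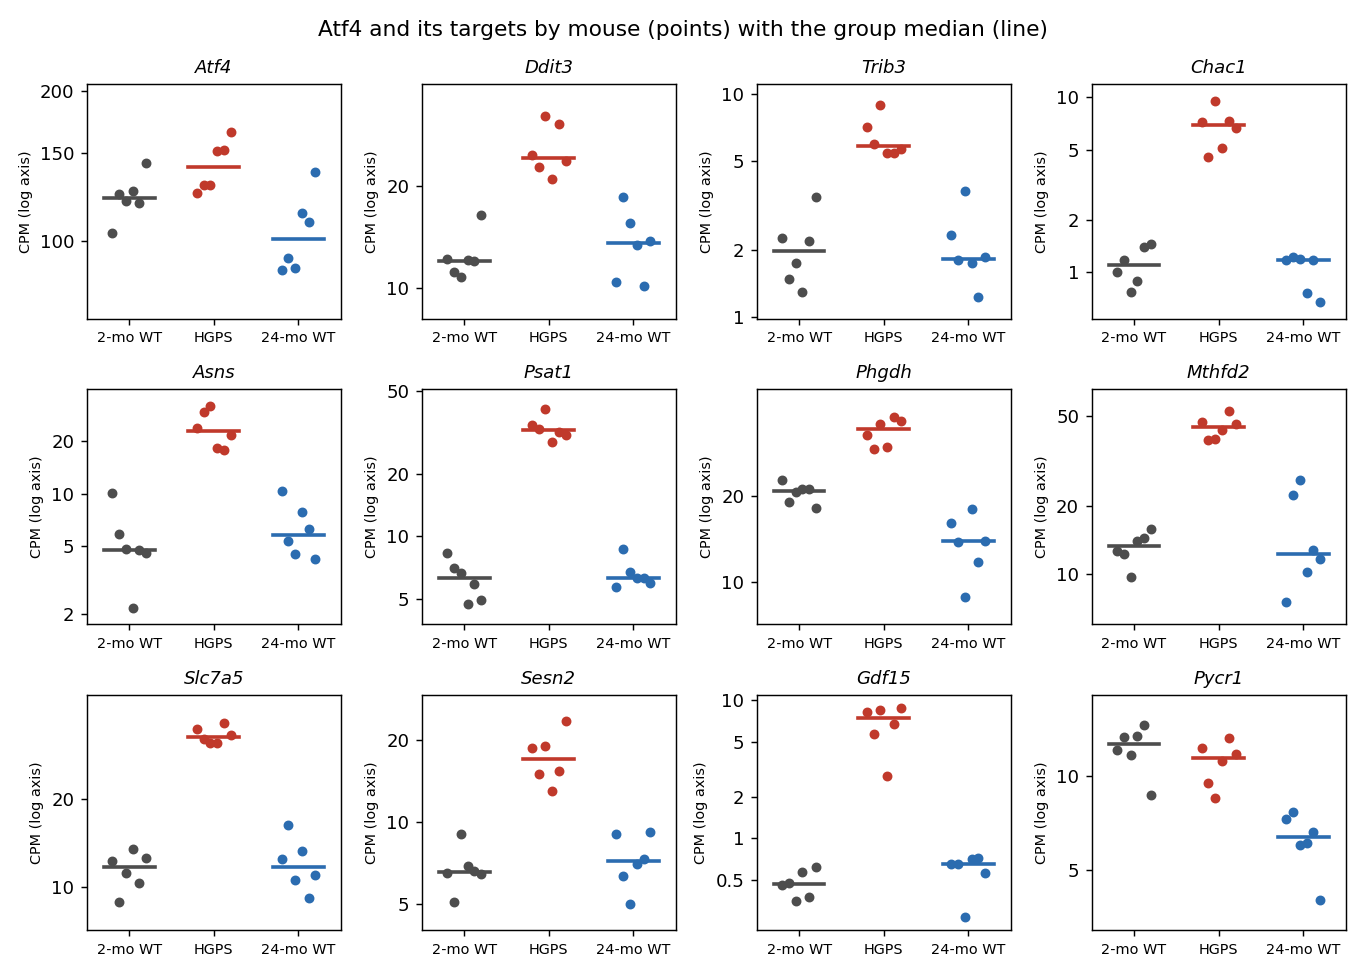
CPM on log axes of 12 genes of the Atf4 list in each mouse (points, 6 per group) with the group median (line), for 2-mo WT (grey), HGPS (red) and 24-mo WT (blue). The HGPS mice lie above all WT mice in 10 of the 12 genes, and the exceptions are Atf4, where all groups overlap, and Pycr1, where 24-mo WT lies below the other groups.

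Of the 20 ER genes, 17 were called higher in HGPS than in 2-mo WT (85%) and 1 lower, with a median log2 fold change of 0.48, where 22% of all tested genes were higher and 21.2% lower. At the cut-offs of the study 7 were higher (5.27% of all tested genes) and 0 lower. Groups were apart, with HGPS higher, in 15 of the 20 (11.0% of all tested genes). The 13 chaperones and foldases were all called higher, with groups apart in each. Their summed level ranged from 5602 to 6937 CPM in HGPS, from 3530 to 3970 CPM in 2-mo WT and from 3095 to 3894 CPM in 24-mo WT. The highest WT mouse was thus below the lowest HGPS mouse.

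The sensors had log2 fold changes of -0.25 to 0.40, where those of the chaperones and foldases ran from 0.29 to 1.38. Eif2ak3 ranged from 36.1 to 47.2 CPM (median 41.2) in HGPS and from 35.9 to 43.7 CPM (median 38.9) in 2-mo WT, and the difference of 0.07 ± 0.09 (SE, adjusted p = 0.551) did not pass. Ern1 was the only gene of the 39 called lower, from 33.8 to 43.6 CPM (median 39.5) in 2-mo WT to 30.9 to 34 CPM (median 32.9) in HGPS, with overlapping groups and a difference of -0.25 ± 0.07 (SE, adjusted p = 0.00533). The call was lost with a macrophage score as a covariate (-0.21, adjusted p = 0.224) and with brown fat and skeletal muscle scores (-0.16, adjusted p = 0.255). Atf6 rose, with HGPS at 124 to 136 CPM (median 131) and 2-mo WT at 90.5 to 107 CPM (median 96.6), and the groups did not overlap (0.40 ± 0.05 SE, adjusted p = 1.3e-05). Xbp1 ranged from 140.5 to 172 CPM (median 150.4) in HGPS and from 124 to 147 CPM (median 128) in 2-mo WT, with 3 HGPS mice above the 2-mo WT range. Its difference of 0.23 ± 0.08 (SE, adjusted p = 0.0348) lay near the threshold and lost the call in 7 of the 18 fits without 1 mouse (HGPS replicates 4, 5 and 6 and 2-mo WT replicates 1, 3, 4 and 6), with an adjusted p of up to 0.0835.

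Hspa5, the main Hsp70 chaperone of the ER, had the largest difference of the ER list. It ranged from 1353 to 2103 CPM (median 1628) in HGPS, from 559.8 to 791 CPM (median 618) in 2-mo WT and from 516 to 743 CPM (median 598) in 24-mo WT. Even the lowest HGPS mouse was above the highest WT mouse, and the log2 fold change against 2-mo WT was 1.38 ± 0.11 (SE, adjusted p = 5.9e-08). Sdf2l1, Creld2 and Manf encode small ER proteins induced by ER stress. Sdf2l1 ranged from 11.1 to 19.4 CPM (median 16.3) in HGPS and from 5.44 to 9.22 CPM (median 7.74) in 2-mo WT (1.06 ± 0.16 SE, adjusted p = 5.2e-05). Creld2 ranged from 43.5 to 58.5 CPM (median 49.97) and from 23 to 28.8 CPM (median 26.1) in the same groups (0.96 ± 0.09 SE, adjusted p = 1.7e-07). For Manf the values were 83.5 to 125 CPM (median 100.2) and 49.8 to 60.2 CPM (median 52.2) (0.96 ± 0.10 SE, adjusted p = 1.1e-06). The groups were apart in each of these genes.

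Co-chaperones and foldases followed with smaller changes. Dnajb9 (ERdj4), a partner of Hspa5, ranged from 57.4 to 61.3 CPM (median 60.1) in HGPS and from 28 to 35.2 CPM (median 32) in 2-mo WT, and the narrow ranges were apart (0.90 ± 0.07 SE, adjusted p = 5.3e-08). The disulfide isomerase Pdia4 ranged from 279.7 to 360.0 CPM (median 317) in HGPS and from 171 to 193 CPM (median 186) in 2-mo WT (0.78 ± 0.08 SE, adjusted p = 9e-07), and its relatives Pdia6 and Pdia3 rose by 0.51 ± 0.07 and 0.46 ± 0.06. Hsp90b1, the Hsp90 of the ER, ranged from 808 to 947 CPM (median 886) in HGPS and from 514 to 563 CPM (median 552) in 2-mo WT, and rose by 0.69 ± 0.06 (SE, adjusted p = 2.1e-07). The lectin chaperones of the calnexin cycle rose by 0.53 ± 0.08 (Calr) and 0.29 ± 0.06 (Canx), and Hyou1 and Dnajc3 by 0.52 ± 0.07 and 0.42 ± 0.07. In ERAD, Edem1 and Sel1l rose by 0.33 ± 0.06 and 0.19 ± 0.05, while Herpud1, at 0.28 ± 0.13 (SE, adjusted p = 0.0851), did not pass.

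**Figure D3:**
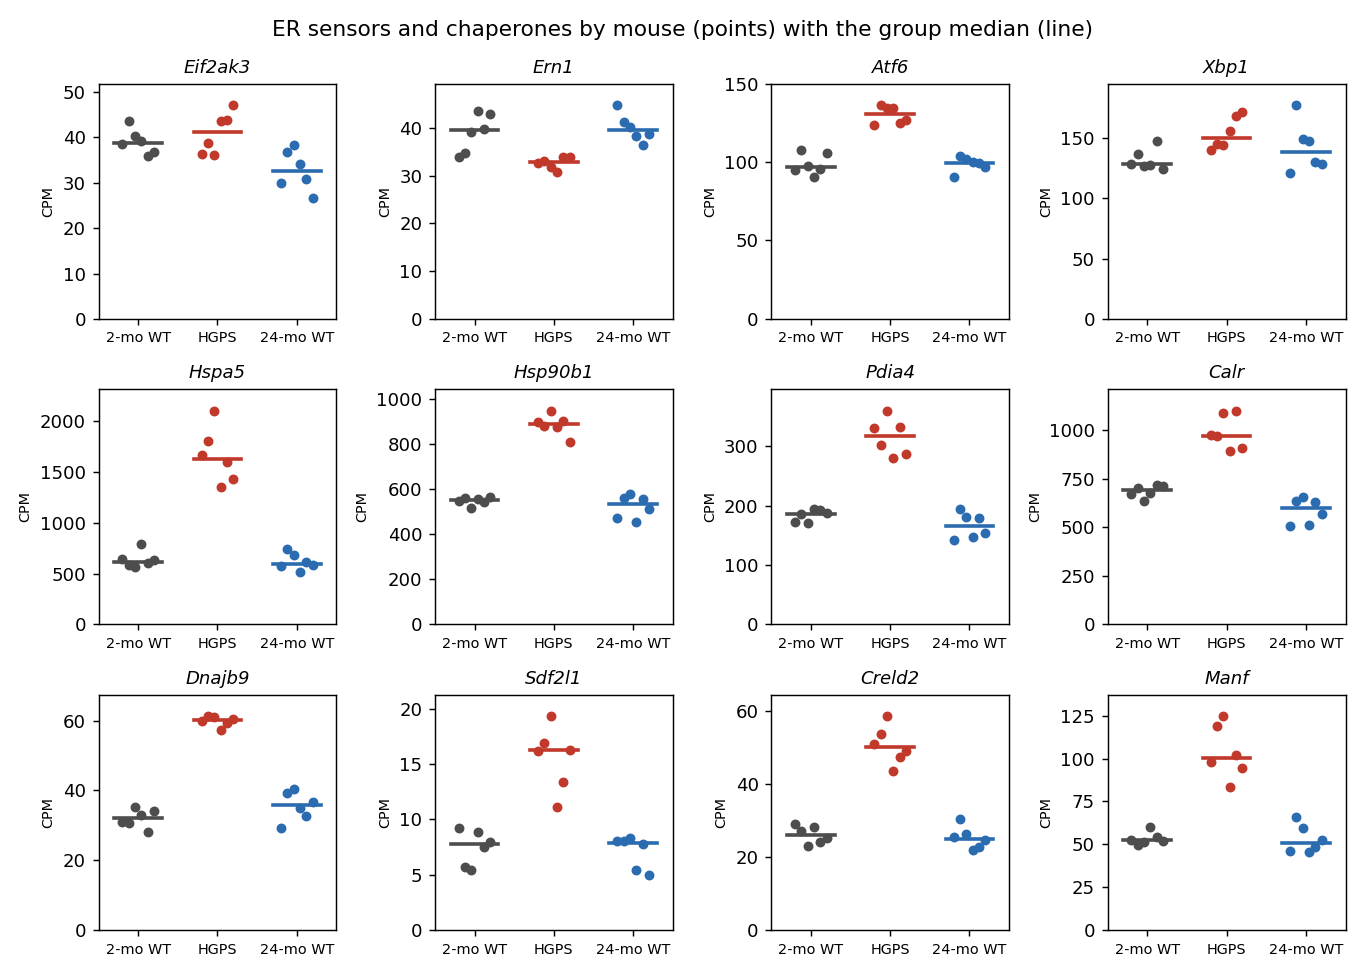
CPM of the 4 sensors (top row) and 8 chaperones or foldases of the ER list in each mouse (points, 6 per group) with the group median (line), on linear axes from 0. In the 8 lower panels every HGPS mouse (red) lies above every WT mouse, Ern1 is lowest in HGPS, and Eif2ak3 and Xbp1 overlap.

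The 7 ER genes with an ER stress response element in their window had log2 fold changes of 0.29 to 1.38 (median 0.53) between HGPS and 2-mo WT. The other 10 with a matched promoter ranged from -0.25 to 1.06 (median 0.30). All 7 are chaperones or foldases, while the other 10 also hold sensors and ERAD genes, so the medians compare unlike genes. The ranges overlap. The chaperones and foldases with a matched promoter but no match in the window were Sdf2l1 (1.06), Dnajb9 (0.90), Pdia4 (0.78) and Pdia3 (0.46). In the Atf4 list, the genes with a C/EBP-ATF element included Chac1, Asns and Trib3 but also Pycr1, which did not pass, and Psat1 rose without a match. This is a description, and motifs were chosen after the values were seen.

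Of 104 further genes of these pathways, all tested, 46 were called higher in HGPS than in 2-mo WT (44.2%) and 7 lower (6.73%), with a median of 0.19, against 22% of all tested genes higher and 21.2% lower. Without Slc7a11 and Derl3, which passed the filter through the HGPS mice alone, 44 of 102 were higher. Among 12 cytosolic tRNA synthetases, which charge tRNAs with amino acids, 10 were higher, with log2 fold changes of up to 0.57 for Gars and 0.56 for Cars, and the exceptions were Eprs (0.10) and Lars (-0.08), all 4 named after their values were seen. Of 14 genes of amino acid transport and synthesis 7 were higher, Slc7a11 among them, and 1 lower. Slc7a11, the cystine transporter, ranged from 2.62 to 5.32 CPM (median 3.77) in HGPS and from 0.0698 to 0.361 CPM (median 0.202) in 2-mo WT, with a fitted log2 fold change of 4.14. It had 1 to 7 counts in the 2-mo WT mice and 66 to 117 in HGPS and passed the filter through HGPS alone, so that this is a description. The folate enzyme Mthfd1l rose by 1.20 ± 0.13 (SE, adjusted p = 1.6e-06), the aspartate aminotransferase Got1 by 1.06 ± 0.10 (SE, adjusted p = 2.7e-07) and the serine phosphatase Psph by 0.74 ± 0.13 (SE, adjusted p = 0.00023). Cbs, of the transsulfuration pathway, fell from 3.41 to 5.27 CPM (median 4.31) to 1.66 to 2.85 CPM (median 2.33), with groups apart (-0.95 ± 0.15 SE, adjusted p = 7.2e-05).

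Of 20 further ER oxidoreductases, isomerases and co-chaperones 6 were higher (30%) and 1 lower, a share of higher genes near the 22% of all tested genes. Of 19 genes of translocation and glycosylation 10 were higher (52.6%), and of 16 of ERAD 7 (43.8%), a count that includes Derl3. Derl3, a channel component of ERAD, was at 3.62 to 7.12 CPM (median 5.15) in HGPS and 0.155 to 0.567 CPM (median 0.254) in 2-mo WT, with a fitted log2 fold change of 4.06. With 3 to 8 counts in the 2-mo WT mice and 72 to 132 in HGPS it also passed through HGPS alone. Its relatives Derl1 and Derl2 were at 0.14 ± 0.05 and 0.39 ± 0.07, both called. Among other ISR targets, the translation repressor Eif4ebp1 rose by 0.89 ± 0.10 (SE, adjusted p = 2.9e-06) and the calcineurin regulator Rcan1 by 0.91 ± 0.19 (SE, adjusted p = 0.00088), 2 of 6 genes called higher (33.3%, against 22% of all tested genes), and 1 was lower. The eIF2 kinases Eif2ak1 and Eif2ak2 did not pass (0.05 ± 0.07 and 0.22 ± 0.09), Eif2ak4 (GCN2), which senses uncharged tRNA, was lower at -0.31 ± 0.07 (SE, adjusted p = 0.00235), and Eif2s1, the phosphorylated subunit of eIF2, was higher at 0.39 ± 0.06 (SE, adjusted p = 2.9e-05).

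Of 11 further stress transcription factors 3 were called higher and 3 lower (27.3% each), shares near the 22% and 21.2% of all tested genes. Cebpb, a partner of Atf4, rose by 1.07 ± 0.21 (SE, adjusted p = 0.00051), and Nupr1 and Cebpg by 0.53 ± 0.14 and 0.43 ± 0.08. Atf3, which is both an Atf4 target and an immediate early gene, was lower in HGPS, at 48.5 to 75.3 CPM (median 54.3) against 103 to 289 CPM (median 158) in 2-mo WT (-1.56 ± 0.47 SE, adjusted p = 0.0114), and reached from 9.54 to 242 CPM (median 110.4) in 24-mo WT. It was named after its values were seen. Immediate early genes, which can move with the handling of tissue, summed to 217 to 307 CPM in HGPS, 269 to 594 in 2-mo WT and 212 to 1210 in 24-mo WT over 7 genes, and their part in the value of Atf3 was not tested.

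**Figure D4:**
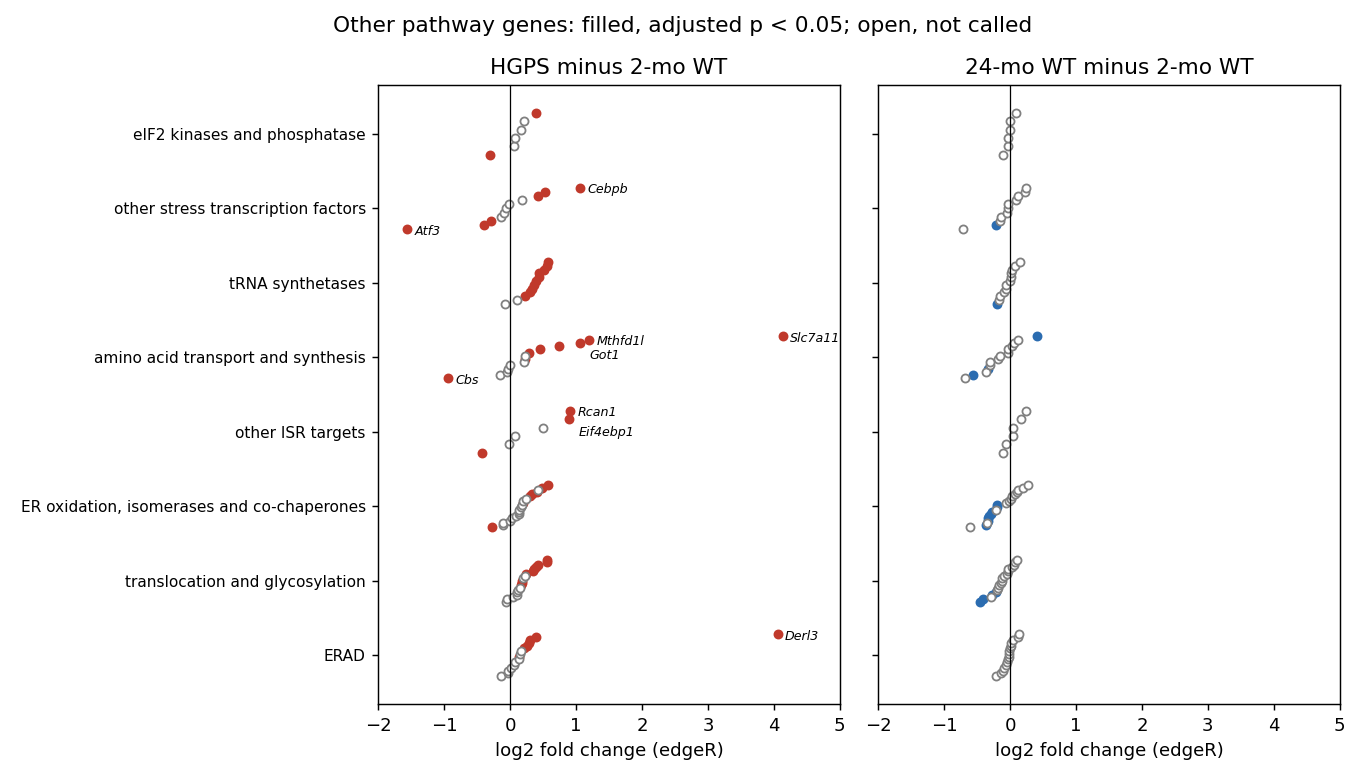
Log2 fold changes against 2-mo WT of 104 further pathway genes in 8 groups, for HGPS (left) and 24-mo WT (right), with filled points at an adjusted p under 0.05 and names at changes beyond 0.85. In HGPS 46 genes were called higher and 7 lower, with Slc7a11 and Derl3 farthest to the right, and at 24 mo 1 was called higher and 16 lower.

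Between the WT groups of different age fewer genes of these pathways changed, and nearly all of them fell. Of the 38 tested genes 0 were called higher and 6 lower at 24 mo (15.8%), where 6.29% of all tested genes were called higher and 5.38% lower. DESeq2 also called 0 higher, and at an unadjusted p under 0.05 1 ER gene was higher and 5 genes of the Atf4 list and 4 of the ER list were lower. At the cut-offs of the study 1 of the 38 was lower, against 1.28% of all tested genes higher and 0.717% lower. The median log2 fold changes were 0.02 for the Atf4 list and -0.04 for the ER list, and 0.00834 for all tested genes. In 3 genes (Phgdh, Pycr1 and Pdia3) all 24-mo WT mice were below all 2-mo WT mice, which was so for 3.08% of all tested genes.

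Of the 4 lower genes of the Atf4 list at 24 mo, 3 were enzymes of amino acid synthesis. Pycr1, the last enzyme of proline synthesis, ranged from 4.00 to 7.67 CPM (median 6.36) at 24 mo and from 8.67 to 14.6 CPM (median 12.7) at 2 mo, without overlap, and changed by -0.97 ± 0.15 (SE, adjusted p = 0.00021). Phgdh ranged from 8.90 to 18 CPM (median 13.9) at 24 mo, also below all 2-mo WT mice, with a change of -0.58 ± 0.13 (SE, adjusted p = 0.0046). Aldh18a1, an earlier step of proline synthesis, ranged from 39.2 to 47.7 CPM (median 45.9) at 24 mo and from 43.5 to 63.9 CPM (median 57) at 2 mo (-0.32 ± 0.08 SE, adjusted p = 0.0108), and the groups overlapped. Atf5 ranged from 38.2 to 50.3 CPM (median 42.1) at 24 mo and from 48.2 to 62.3 CPM (median 56.1) at 2 mo, with 5 of 6 older mice below the younger range (-0.39 ± 0.09 SE, adjusted p = 0.00558). The calls of Aldh18a1 and Atf5 were lost with brown fat and skeletal muscle scores as covariates.

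In the ER list, Pdia3 ranged from 282 to 349 CPM (median 326) at 24 mo and from 366 to 399 CPM (median 386) at 2 mo, apart (-0.26 ± 0.06 SE, adjusted p = 0.00594). Its call was lost with brown fat and skeletal muscle scores as covariates (adjusted p = 0.243). Calr ranged from 508 to 655 CPM (median 598) and from 637 to 718 CPM (median 689.7), with 5 of 6 older mice below the younger range. Its difference of -0.23 ± 0.07 (SE, adjusted p = 0.0498) lay at the threshold and lost the call in 12 of 18 fits without 1 mouse (any of the 6 2-mo WT mice, HGPS replicates 1, 2 and 6, or 24-mo WT replicates 1, 4 and 6), with an adjusted p of up to 0.109. Genes with large rises in HGPS were at 0.31 ± 0.33 (Gdf15), -0.13 ± 0.23 (Chac1), 0.07 ± 0.14 (Psat1) and -0.04 ± 0.11 (Hspa5) at 24 mo, none of them called. Unadjusted normal intervals at the 95% level were -0.20 to 0.33 for Psat1, -0.25 to 0.18 for Hspa5 and -0.33 to 0.95 for Gdf15, whose counts were low. The sensors Ern1, Atf6 and Xbp1 were at 0.04 ± 0.07, 0.00 ± 0.05 and 0.11 ± 0.08, and Eif2ak3 at -0.25 ± 0.09 (SE, adjusted p = 0.0723).

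Among the 104 further genes, 16 were called lower at 24 mo (15.4%) and 1 higher (0.962%), against 5.38% of all tested genes lower and 6.29% higher. At the cut-offs of the study 0 passed, where 0.717% of all tested genes were lower and 1.28% higher. ER oxidoreductases, isomerases and co-chaperones held 8 of the 16, such as P4hb (-0.29 ± 0.06 SE, adjusted p = 0.00274), Ppib (-0.33 ± 0.06 SE, adjusted p = 0.00194) and Erp29 (-0.37 ± 0.07 SE, adjusted p = 0.00113), which help to fold collagen and other secreted proteins. Translocation and glycosylation held 4, of which Ssr2 fell most (-0.45 ± 0.06 SE, adjusted p = 8.6e-05). The mitochondrial folate enzyme Aldh1l2 was lower with groups apart (-0.57 ± 0.09 SE, adjusted p = 0.00021), and Got1 was the gene called higher (0.41 ± 0.10 SE, adjusted p = 0.0101). These 6 genes were named here after their values were seen. Beside them, 3 of 6 fibroblast markers were also called lower at 24 mo (Dpt, Pi16 and Col1a1), where the list ran from -0.92 to 0.20, as 3 of 6 were in HGPS against 2-mo WT, and the part of the fibroblasts in these differences was not tested.

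HGPS was also set against 24-mo WT, which tests directly whether the changes from 2-mo WT differ between progeria and age, as both share the 2-mo WT mice. In the Atf4 list 17 of 18 genes were called higher in HGPS (16 of 17 without Gdf15) and 0 lower, and in the ER list 18 of 20 higher and 1 lower, against 23.8% of all tested genes called higher and 23.6% lower. Their medians were 1.15 and 0.56, and that of all tested genes -0.0105. At the cut-offs of the study 23 of the 38 were higher, against 6.02% higher and 6.11% lower among all tested genes. Groups were apart, with HGPS higher, in 30 of the 38, against 10.9% of all tested genes. Without Gdf15, 12 of 17 genes of the Atf4 list passed these cut-offs and 13 of 17 had groups apart. In the ER list 10 and 16 of the 20 did.

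In 24-mo WT, Gdf15 ranged from 0.270 to 0.713 CPM (median 0.644), Chac1 from 0.677 to 1.22 CPM (median 1.17) and Psat1 from 5.68 to 8.67 CPM (median 6.29). Asns ranged there from 4.19 to 10.3 CPM (median 5.78), Trib3 from 1.22 to 3.67 CPM (median 1.82) and Mthfd2 from 7.49 to 26.1 CPM (median 12.3). All 6 HGPS mice were above these ranges in each gene. Of the ER genes, Sdf2l1 ranged from 4.99 to 8.36 CPM (median 7.90) in 24-mo WT, Creld2 from 21.9 to 30.4 CPM (median 24.9) and Manf from 45.2 to 65.8 CPM (median 50.5). Pdia4 ranged from 142 to 195 CPM (median 166) and Hsp90b1 from 455 to 576 CPM (median 533), and these too lay below all HGPS mice.

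The largest differences were those of Gdf15 (3.51), Chac1 (2.70 ± 0.21), Psat1 (2.33 ± 0.13), Asns (1.90 ± 0.27), Trib3 (1.61 ± 0.25) and Mthfd2 (1.56 ± 0.22) in the Atf4 list. In the ER list they were Hspa5 (1.42 ± 0.11), Sdf2l1 (1.13 ± 0.16), Creld2 (1.01 ± 0.09), Manf (0.97 ± 0.10), Pdia4 (0.92 ± 0.08) and Hsp90b1 (0.76 ± 0.06). Ddit3 differed by 0.93 ± 0.15 (SE, adjusted p = 4.1e-05). Several genes passed here that had not passed against 2-mo WT. Atf4 differed by 0.44 ± 0.11 (SE, adjusted p = 0.00239), with groups that overlapped. Pycr1 (0.82 ± 0.15 SE, adjusted p = 0.00019) and Aldh18a1 (0.36 ± 0.08 SE, adjusted p = 0.00113) had groups apart. Shmt2, Eif2ak3 and Herpud1 passed at 0.39 ± 0.09 (SE, adjusted p = 0.00143), 0.32 ± 0.09 (SE, adjusted p = 0.00542) and 0.33 ± 0.13 (SE, adjusted p = 0.0386), and Herpud1 lost the call in 7 of 18 fits without 1 mouse (HGPS replicates 2, 4, 5 and 6 and 24-mo WT replicates 1, 5 and 6). Ern1 was lower in HGPS than in all 24-mo WT mice (-0.29 ± 0.07 SE, adjusted p = 0.00159), a call also lost with the macrophage score (adjusted p = 0.115) and the brown fat and skeletal muscle scores (adjusted p = 0.345). Xbp1 and Ppp1r15a did not pass, at 0.12 ± 0.08 and -0.02 ± 0.14.

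Of the 104 further genes 65 were higher in HGPS than in 24-mo WT (62.5%) and 5 lower (4.81%), against 23.8% of all tested genes higher and 23.6% lower. Without Slc7a11 and Derl3, 63 of 102 were higher. Slc7a11 and Derl3, which had at most 7 counts in any 24-mo WT mouse, had fitted differences of 4.50 and 4.08. Past the cut-offs of the study were also Mthfd1l (1.08 ± 0.13), the prolyl isomerase Fkbp11 (1.03 ± 0.22), Eif4ebp1 (0.96 ± 0.10), the Hspa5 partner Dnajb11 (0.91 ± 0.07), Psph (0.90 ± 0.13), Aldh1l2 (0.85 ± 0.09) and the translocon subunits Sec61g (0.85 ± 0.13) and Sec61b (0.80 ± 0.12). Translocation and glycosylation genes were higher in 16 of 19, tRNA synthetases in 10 of 12.

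Within groups, the CPM values varied more in the Atf4 list than in the ER list. This variation includes counting noise, which is larger in genes with few counts and was not separated from differences between mice. The median coefficient of variation was 12.3% in HGPS, 16.2% in 2-mo WT and 22.6% in 24-mo WT for the Atf4 list, and 7.55%, 6.88% and 11.1% for the ER list. Among HGPS mice, replicate 3 (75 d, the oldest) held the highest value of its group in 17 of the 38 genes, and replicate 4, which had the largest total of counts, the lowest in 18. The 95 d old mouse of the 2-mo WT group held the highest value in 10, among them Atf4, Ddit3 and Trib3. Without it, the changes of Ddit3 and Trib3 were 1.15 and 1.82, Atf4 stayed short of the threshold (0.26, adjusted p = 0.0676), and the counts of called genes against 2-mo WT were 13 in the Atf4 list and 17 in the ER list.

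Levels compared per kilobase of the longest annotated transcript placed chaperones such as Calr at the top and stress effectors such as Chac1 near the bottom. Between these the classes were mixed, with Atf4 at rank 9 and the ER gene Sdf2l1 at rank 28 of the 39 genes. In 2-mo WT, Calr stood at 314 CPM per kilobase, Hspa5 at 173 and Hsp90b1 at 169.8. In HGPS, Hspa5 reached 451, beside 452 for Calr. Atf4, at 60.7 in 2-mo WT, had the highest level of its list, whereas Chac1 (0.681) and Gdf15 (0.307) were the lowest of those tested. The genes of largest fold in the Atf4 list thus started from low levels, and the largest fold in the ER list belonged to a gene that was already abundant.

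Markers of other cells moved with these results. Macrophage markers summed to 828 to 1325 CPM in HGPS, 442 to 664 CPM in 2-mo WT and 393 to 819 CPM in 24-mo WT. With a macrophage score as a covariate, 8 of 18 genes of the Atf4 list and 12 of 20 of the ER list were called between HGPS and 2-mo WT. Over all 15210 tested genes the calls fell from 6567 to 2245 with that score. Psat1 (2.13), Chac1 (2.06), Asns (2.56) and Hspa5 (1.28) stayed called, as did Mthfd2, which moved from 1.76 to 0.72 (adjusted p = 0.0353). Ddit3 was at 0.55 and Trib3 at 1.05, both without the call (adjusted p = 0.078 and 0.0711), and Ddit4 (0.03), Slc3a2 (0.45, adjusted p = 0.0613) and Atf5 (0.33) were not called either. In the ER list Calr (0.32), Canx (0.16), Dnajc3 (0.28), Sel1l (0.23), Xbp1 (-0.07) and Ern1 (-0.21) were not called. Against 24-mo WT, Ddit3 was at 0.46 (adjusted p = 0.107) and Atf4 at 0.45 (adjusted p = 0.0978) with that score. In all 7 macrophage markers the HGPS mice lay above all 2-mo WT mice, so that the score and the genotype cannot be fully told apart.

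Brown fat markers summed to 447 to 1642 CPM in HGPS and 104 to 586 CPM in 2-mo WT. With brown fat and skeletal muscle scores as covariates the counts were 13 and 17, where calls over all tested genes fell from 6567 to 3412. Atf4 and Herpud1 gained the call there, and Atf5, Ern1 and Xbp1 lost it. Asns moved from 2.14 to 1.17. Against 24-mo WT, Asns (0.71, adjusted p = 0.0727), Trib3 (1.31, adjusted p = 0.0649) and Aldh18a1 then did not pass, nor did Eif2ak3, Ern1, Hyou1, Edem1 and Herpud1. The counts were 14 of 18 and 14 of 20, where calls over all tested genes fell from 7201 to 2434. Between 24-mo and 2-mo WT, Atf5, Aldh18a1, Pdia3 and Calr lost the call with these scores, and Phgdh and Pycr1 kept it. Skeletal muscle markers were low, at 2.79 to 8.28 CPM in sum. Plasma cells are rich in ER. Markers of B and plasma cells were at 0.73 to 7.70 CPM in sum over 6 genes, of which 3 passed the filter on low counts. Mzb1 was at 0 in most mice, with at most 0.0835 CPM in HGPS and 0.924 CPM in 24-mo WT. The part of such cells in the values of the ER genes was not tested. With an immediate early score as a covariate, 15 genes of the Atf4 list were called, Atf4 (0.29, adjusted p = 0.0493) and Ppp1r15a (0.44, adjusted p = 0.0038) among them.

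**Figure D5:**
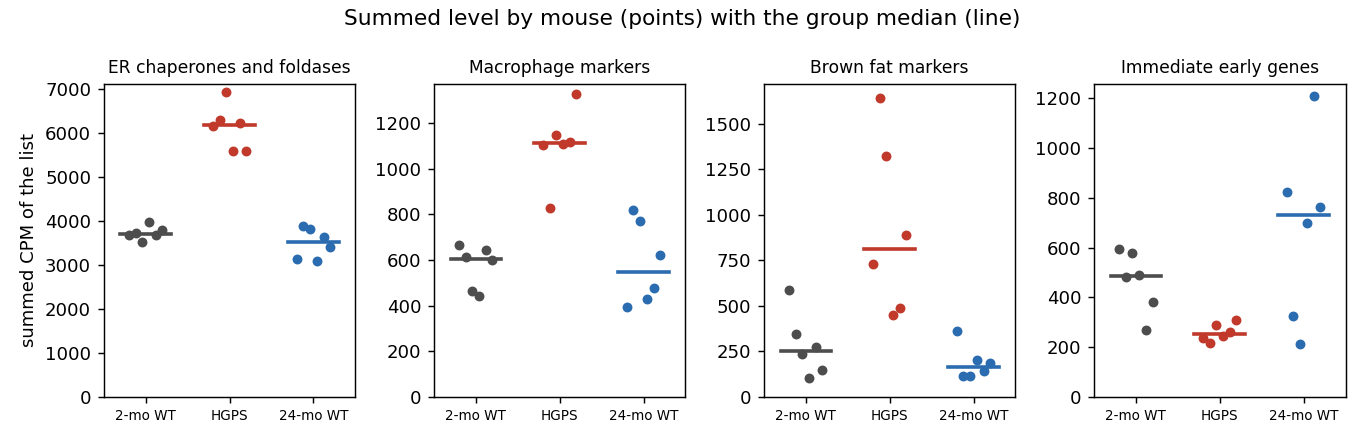
Summed CPM per mouse (points, 6 per group) with the group median (line) for the 13 ER chaperones and foldases and for 3 sets of markers, on linear axes from 0. The chaperones and the macrophage markers of HGPS (red) lie above both WT groups, brown fat markers are higher in HGPS with overlap, and immediate early genes spread most in 24-mo WT.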

How the data were processed

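Total RNA of 18 descending aortas (6 per group) was sequenced with a stranded, ribosome-depleted protocol. The authors assigned reads to GENCODE M23 transcripts with salmon and used tximport for sums over genes. They deposited estimated counts for 54281 genes, written as whole numbers and not normalized. Labels also list Bowtie 0.12.2 without a role. The authors tested with DESeq2.

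Symbols came from GENCODE M21 (same assembly, 54107 identifiers matched). Here, the 15210 genes that reached 10 counts in 6 or more mice were scaled by TMM. A quasi-likelihood fit (edgeR 4.0.16 in R 4.3.3) held the 3 groups, each contrast was tested with glmQLFTest, with Benjamini-Hochberg adjustment over all of these genes. The SE is the log2 fold change over the root of F. Members and lists were chosen with earlier results of these data known. Sensors, Atf4, Ddit3 and Hspa5 were always given by mouse, then up to 6 called genes per list and comparison by size of change, and further genes past the cut-offs of the study, up to 10.

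Alternatives were DESeq2 1.42.0, other scalings and filters, covariates, a replicate block, thinned libraries and each mouse left out. The immediate early score was added after seeing the data. The fit was tested on simulated data.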

Additional observations from a re-analysis of the deposited data

Results flagged for a closer look

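In 6 of the 114 sets of 6 mice (38 tested genes in 3 groups), the highest or lowest mouse stood apart from the others by Dixon's criterion, which chance meets in about 1 set in 20. In 2-mo WT, the 95 d old mouse had 16.5 CPM of Ddit3, above the next at 12.2, and replicate 4 had 791 CPM of Hspa5, above the next at 643. In HGPS, replicate 4 had 55.7 CPM of Atf5, below the next at 73.4, and replicate 6 had 661 CPM of Canx, below the next at 716. In 24-mo WT, replicate 3 had 0.27 CPM of Gdf15, below the next at 0.554, and replicate 2 had 8.67 CPM of Psat1, above the next at 6.69.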

How the results depend on the processing

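The counts of called genes (13 in the Atf4 list, 18 in the ER list and 53 of the further genes for HGPS against 2-mo WT; 4, 2 and 17 for 24-mo against 2-mo WT; 17, 19 and 70 for HGPS against 24-mo WT) stayed within 1.5 times under every alternative except those given here, and the causes were not tested. With a macrophage score as a covariate, HGPS against 2-mo WT gave 8 genes of the Atf4 list and 18 further genes, 24-mo against 2-mo WT gave 4 ER genes, and HGPS against 24-mo WT gave 22 further genes. With brown fat and skeletal muscle scores, 24-mo against 2-mo WT gave 2, 0 and 7, and HGPS against 24-mo WT gave 45 further genes. Over all tested genes, the calls in the 3 comparisons were 6567, 1775 and 7201 without a score. They were 2245, 2118 and 3145 with the macrophage score, and 3412, 906 and 2434 with the brown fat and skeletal muscle scores. The stricter cut-offs of the study gave 7 ER and 9 further genes for HGPS against 2-mo WT, 1, 0 and 0 for 24-mo against 2-mo WT, and 10 ER and 16 further genes for HGPS against 24-mo WT. Without Slc7a11 and Derl3, 6 further genes were higher in HGPS than in 2-mo WT and 14 than in 24-mo WT at these cut-offs. The 2 ER genes at 24 mo became 1 with RLE scaling, library totals alone, no low-count filter, a minimum of 50 counts, only the groups compared in the fit, or an immediate early score. Leaving out 1 mouse gave 13 to 14, 17 to 19 and 48 to 57 for HGPS against 2-mo WT, 4 to 5, 1 to 3 and 12 to 19 for 24-mo against 2-mo WT, and 17 to 17, 18 to 20 and 67 to 73 for HGPS against 24-mo WT. Of the called members (31, 6 and 36), 20, 2 and 23 were called under each of 29 alternatives other than the cut-offs of the study.

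Among members called in the fit or in the alternative, the direction reversed for Xbp1, HGPS vs 2-mo WT (-0.069 with the macrophage score), for Herpud1, HGPS vs 24-mo WT (-0.079 with the macrophage score and -0.013 with the immediate early score), and for Ppp1r15a, HGPS vs 24-mo WT (0.46, adjusted p = 0.0163 by edgeR, with the immediate early score). Members called in neither also changed sign, such as Herpud1 (-0.18) and Eif2ak3 (-0.13) between HGPS and 2-mo WT with the macrophage score. Same-numbered mice did not deviate together (correlations of -0.25 to 0.28 over 18 pairs), so the numbers do not pair them. A fit with the replicate number as a block gave 15, 18 and 55 called genes, 5, 2 and 16, and 17, 19 and 71 in the same order. Low counts in WT mice limit the values of Gdf15, Slc7a11, Derl3 and Fgf21.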
